A study of Rattus norvegicus with 12 samples.

Results

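Genes for the chaperones and folding enzymes of the endoplasmic reticulum, and for regulators and targets of the unfolded protein response, were followed in rat liver. They were Hspa5, Hsp90b1, Calr, Dnajb9, Sdf2l1, Pdia4, Pdia6, Creld2, Herpud1 and Xbp1, chosen by name for these roles. All 10 were measured, each by 1 probe set with 1 gene symbol, among 14217 named genes. The probe sets were 1370283_at (Hspa5), 1388331_at (Hsp90b1), 1398750_at (Calr), 1387116_at (Dnajb9), 1373043_at (Sdf2l1), 1370007_at (Pdia4), 1370859_at (Pdia6), 1377016_at (Creld2), 1367741_at (Herpud1) and 1371249_at (Xbp1). The livers came from male Wistar rats, an outbred laboratory strain, aged 5 weeks per the labels. One group of 6 had eaten an AIN93G purified diet with 20% maple syrup, and the other group of 6 the same diet with 20% of a mixed sugar syrup of similar sugar composition. Both groups had first been given plain AIN93G for 4 days, then their own diet for 11 days, and were fasted for 16 hours before the liver was taken. The study fed 7 rats maple syrup and 8 the sugar mix, and 6 arrays of each diet were analysed here.

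Secreted and membrane proteins fold in the endoplasmic reticulum with the help of chaperones such as BiP, the product of Hspa5, and of enzymes that form disulfide bonds. When unfolded proteins build up there, the sensors IRE1, PERK and ATF6 start the unfolded protein response, which raises transcription of chaperone and degradation genes, in part through the factors XBP1 and cleaved ATF6. Hepatocytes secrete most plasma proteins and hold much endoplasmic reticulum, and several of these genes respond in liver to feeding and fasting.

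A DNA element known from mammalian chaperone promoters, the endoplasmic reticulum stress element (ERSE), has the letters CCAAT, then 9 bases of any kind, then CCACG. In it the factor NF-Y binds the CCAAT end, and ATF6 or XBP1 the CCACG end. It was searched on both strands from 250 bases before to 50 bases after the annotated start, in RefSeq sequences of rat build GRCr8. Promoter sequence was matched for 9 of the 10 genes; Pdia6 was not. The full element was found in 5 of the 9, against 0.0657% of all 33469 promoters. With at least 9 of the 10 fixed letters it was in 7 of the 9, against 1.41% of all promoters. A related element, ERSE-II, has ATTGG, 1 base of any kind, then CCACG; it was in the Herpud1 promoter and in 0.0508% of all. Both elements contain CCACG and CCAAT (or its complement ATTGG), and those short words alone were each in all 9 promoters, against 31.6% of all promoters for CCACG and 37.5% for CCAAT. The word TGACGTGG, bound by XBP1 in other promoters, was in 0 of the 9 and in 0.595% of all. The element is known from chaperone promoters, and these genes were chosen by name for such roles. The contrast with all promoters is therefore a description and not an independent test. A match is a description of the letters, not a measured binding site.

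The sequences below show the matches, 5′ to 3′ on the strand of the gene, with the matching letters in capitals. In Hsp90b1, Calr, Creld2 and Pdia4 the element is on the opposite strand, so that CGTGG comes first and ATTGG after it; in Pdia4 the first letter of CGTGG is the one that differs and is in lower case. Hsp90b1 has a second match, which is not shown. Hspa5 (chr3:38452766-38453015, plus strand), whose match ends 24 bases before the start, is given over 250 bases because it is the best known target. For the others the match is given with its flanks: Hsp90b1 (chr7:23012327-23012385, minus strand), Calr (chr19:40213117-40213173, plus strand), Creld2 (chr7:121789219-121789277, plus strand), Xbp1 (chr14:84604538-84604596, plus strand), Pdia4 with 9 of the 10 letters (chr4:78153254-78153312, minus strand) and Herpud1 with ERSE-II (chr19:10614801-10614851, minus strand).
Hspa5: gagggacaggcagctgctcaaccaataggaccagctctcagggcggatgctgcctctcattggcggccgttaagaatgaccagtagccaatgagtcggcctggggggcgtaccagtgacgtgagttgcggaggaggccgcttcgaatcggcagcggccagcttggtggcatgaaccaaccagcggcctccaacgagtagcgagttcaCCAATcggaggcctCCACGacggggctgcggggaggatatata
Hsp90b1: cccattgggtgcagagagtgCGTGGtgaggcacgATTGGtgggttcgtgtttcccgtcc
Calr: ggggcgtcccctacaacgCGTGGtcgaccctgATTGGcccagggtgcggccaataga
Creld2: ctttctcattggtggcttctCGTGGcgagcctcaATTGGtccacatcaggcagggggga
Xbp1: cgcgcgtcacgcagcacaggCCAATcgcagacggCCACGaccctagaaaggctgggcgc
Pdia4: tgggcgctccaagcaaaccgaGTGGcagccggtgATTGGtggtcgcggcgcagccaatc
Herpud1: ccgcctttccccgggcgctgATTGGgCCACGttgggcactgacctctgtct
Dnajb9 and Sdf2l1 matched 8 of the 10 letters of ERSE at best. Calr, Creld2 and Sdf2l1 each also matched 9 of the 10 letters of ERSE-II.

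The deposited value of a probe set is a score without a stated unit. Its level resembles a log2 intensity, from 5.57 to 15.21 over the table, but it differs so little between arrays that a difference cannot be read as a fold change. The median standard deviation (SD) of a probe set over the 12 livers was 7.13e-06, while the median of an array ranged over 0.000169. Values of a gene are therefore given in SDs of that gene over the 12 livers, from its mean. Differences between the diets are given as Hedges' g, the mean with maple syrup less the mean with the sugar mix, divided by the SD within diets, with a small-sample correction. Hepatocyte markers were bright, with a median level of 14.45 over 11 genes, and those of pancreatic acinar cells dim, with a median level of 6.61 over 9 genes. The other cell markers had median levels of 7.13 (plasma and B cells, 7 genes) and 10.13 (Kupffer cells and macrophages, 9 genes). The hepatocyte markers lay near the top of the scale, with Alb at 15.21. Alb ranged from -0.96 to 0.96 SD in both diets. Its median was at an end of that range, 0.96 with maple syrup and -0.96 with the sugar mix. Whether values there still follow the amount of RNA was not tested. The number of arrays limits the precision.

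All 10 genes had bright probe sets. A probe's brightness depends on its sequence, so these levels are not amounts of RNA that can be set against each other. Hspa5 had a mean level of 13.31, above 99.5% of the probe sets tested, and Hsp90b1 one of 13.02. Herpud1, Xbp1 and Pdia4 had levels of 12.10, 12.02 and 11.99. Pdia6, Calr and Dnajb9 had levels of 11.59, 11.33 and 10.31. The dimmest were Sdf2l1 at 9.83 and Creld2 at 9.74, still above 89.3% of the probe sets. The SD of the score over the livers was largest for Creld2, at 0.00158, above that of 98.7% of probe sets, and smallest for Hsp90b1, at 2.05e-05, above that of 77.3%.

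Most of these genes went up and down together from liver to liver, whichever diet the rat had eaten. The median Pearson correlation over the 45 pairs was 0.55, against 0.0055 over all pairs of genes, and 39 of the 45 were above 0. In 15 pairs the correlation passed a permutation test (100000 permutations, two-sided, Benjamini-Hochberg adjusted over the 45 pairs), all 15 of them positive, and 10 of these also passed with Spearman's rank correlation. In 27 of the 45 pairs r was at least 0.5, against 6.42% of all pairs of genes. The values of 1 array enter both genes of a pair, so a correlation includes what the array or the piece of liver had in common. In whole liver, fewer cells of a type and less RNA per cell cannot be told apart.

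**Figure D1:**
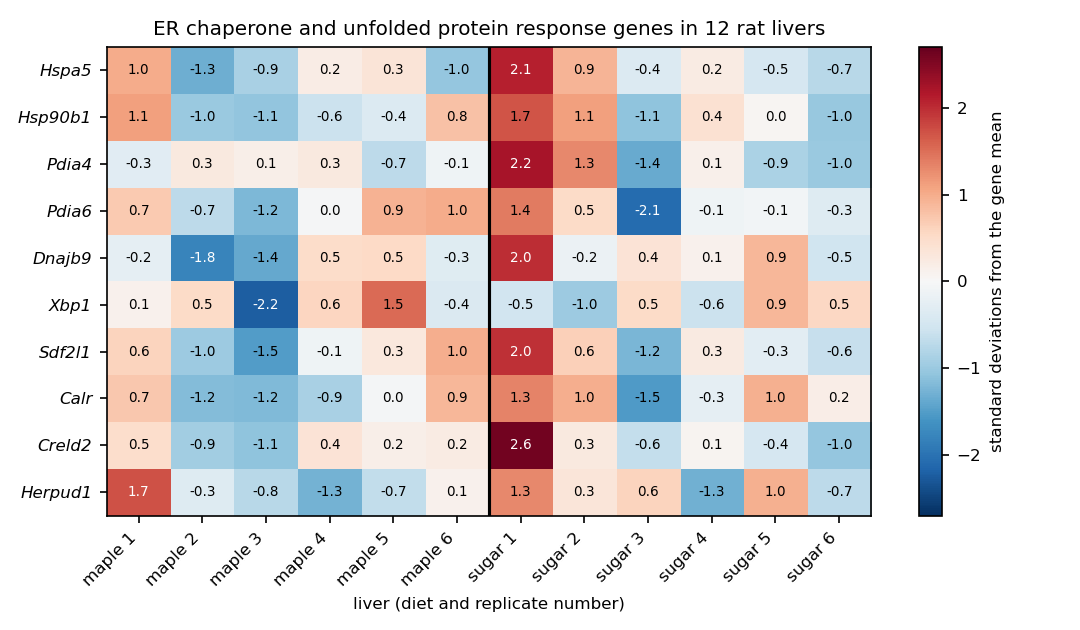
Level of each of the 10 genes (rows) in each liver (columns, maple syrup left, sugar mix right), in standard deviations from the mean of the gene over the 12 livers. Sugar mix replicate 1 was the highest liver for 8 of the 10 genes, and maple syrup replicate 3 was below 0 for 9 of them.

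The heat map of the 10 genes shows the livers at the ends of this pattern. The mean of the 10 was highest in sugar mix replicate 1, at 1.61 SD, where 9 genes were more than 1 SD above their mean; Xbp1, at -0.51, was the exception. It was lowest in maple syrup replicate 3, at -1.12, where 7 genes were more than 1 SD below their mean. Maple syrup replicate 2 (-0.75), sugar mix replicate 3 (-0.68) and sugar mix replicate 6 (-0.53) were also low. Over all probe sets, sugar mix replicate 1 held the highest value for 9.5% of them, where the other livers held 6.3% to 10.5%. Whether that array differed from the others in further ways was not tested. Heat shock response genes were also high in that liver, with a list mean of 1.28 SD. Most of that list is cytosolic, but its Hspd1 and Hspe1 encode mitochondrial chaperones. Other folding factors of the endoplasmic reticulum and translocon genes had list means of 0.73 and 0.74 there. Unfolded protein response sensors were at 0.56, degradation genes at 0.09, and PERK and ATF4 targets at -0.53. The list means of Kupffer cell markers (0.31), pancreatic acinar markers (0.37) and plasma and B cell markers (0.21) were nearer 0, and that of hepatocyte markers was -0.60. In maple syrup replicate 3 the list mean of Kupffer cell markers was -1.13, about as low as the mean of the 10 genes. Other folding factors, degradation genes and translocon genes were at -0.79, -0.75 and -0.62 in that liver. Acinar (-0.61), heat shock (-0.49), hepatocyte (-0.17) and plasma and B cell genes (-0.09) were nearer 0. The sensors were at 0.11, and the PERK and ATF4 targets at -0.09. The part of these in the pattern was not tested.

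Sdf2l1, which encodes a partner of the DNAJ co-chaperones in the endoplasmic reticulum, followed the others most closely, with r = 0.93 with the mean of the other 9 genes. Its correlation with Hsp90b1, which encodes the HSP90 of the endoplasmic reticulum (GRP94), was r = 0.92 and rho = 0.93 (adjusted permutation p = 0.00045 and 0.00112). Without the 2 livers farthest from the median of Hsp90b1, r was 0.88. Only 2 of all named genes had a higher r with Hsp90b1 than Sdf2l1 did, where negative r ranked lowest. Sdf2l1 and Pdia6, a disulfide isomerase, had r = 0.91 and rho = 0.94 (adjusted permutation p = 0.00105 and 0.0009), and r = 0.94 without the 2 farthest livers of Pdia6. Sdf2l1 and Creld2, a stress-induced protein of the endoplasmic reticulum with isomerase activity, had r = 0.90 and rho = 0.86 (adjusted permutation p = 0.00105 and 0.00765), and r = 0.83 without the 2 farthest livers of Sdf2l1.

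Calr, which encodes the lectin chaperone calreticulin, varied with Hsp90b1, Pdia6 and Sdf2l1 (r = 0.84, 0.83 and 0.82, rho = 0.86, 0.78 and 0.81). The adjusted permutation p of these r was 0.00731, 0.00472 and 0.00643, and that of rho was 0.00765, 0.0228 and 0.0116. Without the 2 livers farthest from the median of the other gene of each pair, r was 0.77, 0.71 and 0.75. Hspa5 was closest to Creld2, with r = 0.87 and rho = 0.76 (adjusted permutation p = 0.00459 and 0.0285), and r = 0.70 without the 2 farthest livers of Hspa5. Dnajb9, an XBP1 target whose product is a co-chaperone of BiP, was closest to Creld2 too (r = 0.76, adjusted permutation p = 0.0212), but rho was 0.55 and did not pass (adjusted permutation p = 0.188). Without the 2 farthest livers of Dnajb9 r was 0.41, and without sugar mix replicate 1 it was 0.54. Within the diets r was 0.87 in maple syrup livers and 0.81 in sugar mix livers. Dnajb9 with Creld2 was not among the 8 pairs that passed in every fit that left out 1 liver.

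Xbp1, Herpud1 and Pdia4 had the lowest r with the mean of the other 9 genes, at -0.06, 0.48 and 0.49. Xbp1, the transcription factor, had a median r of -0.01 with the other 9 genes, and 0 of its 9 pairs passed, with unadjusted permutation p between 0.09 and 0.98 for r. Herpud1, which acts in degradation at the membrane of the endoplasmic reticulum, had a median r of 0.41, and 0 of its pairs passed either. Its r was 0.57 with Hsp90b1 (rho = 0.45, adjusted permutation p = 0.113 and 0.275). Pdia4, a disulfide isomerase, passed in 1 pair, with Creld2 (r = 0.71, adjusted permutation p = 0.0397), where rho was 0.47 (adjusted permutation p = 0.275). Without the 2 farthest livers of Pdia4 this r was 0.27.

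Pdia4 also varied less among the maple syrup livers than among the sugar mix livers, with an SD of 0.39 and 1.43. In the 6 maple syrup livers its r with Hspa5, Hsp90b1 and Sdf2l1 was -0.55, -0.47 and -0.58. In the 6 sugar mix livers the same pairs had r of 0.97, 0.95 and 0.97. The difference between the diets in these correlations was not tested. Xbp1 also had r of different sign in the diets for several genes, with 0.58 in maple syrup livers and -0.56 in sugar mix livers for Pdia6, 0.48 and -0.70 for Sdf2l1, and 0.54 and -0.59 for Creld2, again not tested. Pairs of the other 8 genes had r between -0.07 (Dnajb9 with Herpud1) and 0.97 in maple syrup livers and between 0.21 (Pdia6 with Herpud1) and 0.97 in sugar mix livers. Sdf2l1 and Hsp90b1 had r = 0.88 in maple syrup livers and 0.95 in sugar mix livers, and Sdf2l1 and Pdia6 had r = 0.97 in maple syrup livers and 0.92 in sugar mix livers. With values taken as deviations from the diet means, the median r of the 45 pairs was 0.55 and 12 pairs passed, all of them among the 15.

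The extent of the pattern rests in part on sugar mix replicate 1. Without it 9 pairs passed in place of 15, and the median r was 0.34. Without both that liver and maple syrup replicate 3, which were chosen after their values were seen, 2 pairs passed and the median r was 0.33. In all 12 fits that left out 1 liver, the same 8 pairs passed: Hsp90b1 with Pdia6, Sdf2l1, Calr and Creld2, Sdf2l1 with Pdia6, Calr and Creld2, and Pdia6 with Calr.

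**Figure D2:**
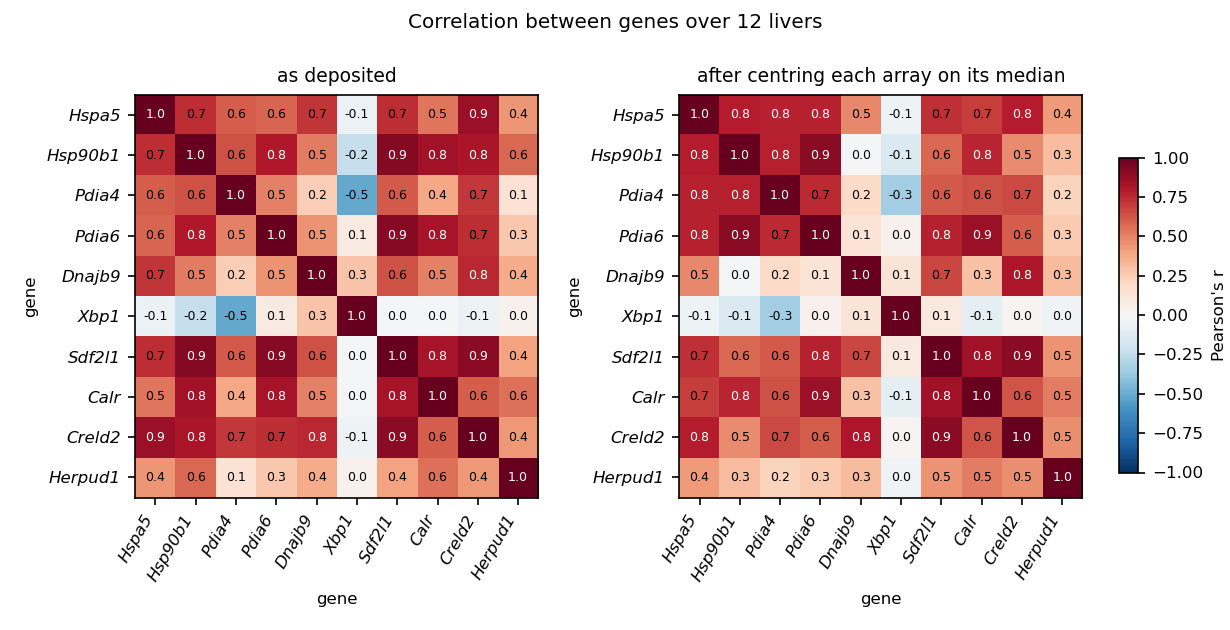
Pearson correlation between the 10 genes over the 12 livers, as deposited (left) and after each array was centred on its median (right). Xbp1 is near 0 with most genes in both panels, while Hsp90b1 and Sdf2l1 have r = 0.92 as deposited and 0.58 after centring.

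Centring each array on its median left the median r of the 45 pairs at 0.51, but it changed what that value stands against. The array medians ranged over 8.27 times the SD of Hsp90b1 and 3.75 times that of Pdia6, against 0.11 times that of Creld2 and 0.25 times that of Sdf2l1. After centring, the value of Hsp90b1 largely followed the array median itself, with r = -0.94 over the 12 arrays. Over all pairs of genes the median r became 0.95, and 81.7% of pairs had r of at least 0.5. Creld2 and Sdf2l1, the genes with the most spread beside the array medians, had r = 0.90 with each other in both settings, while that of Hsp90b1 with Sdf2l1 was 0.58 after centring, against 0.92 as deposited. Of the 15 pairs, 11 were among the 18 that passed after centring. Centring on the median of standardised probe sets, which gives each probe set equal weight, left the median r at 0.55 and the same 15 pairs.

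The 10 genes did not differ between the diets beyond the spread between livers. With limma and Benjamini-Hochberg adjustment over all 31042 probe sets, 0 of the 10 passed at an adjusted p of 0.05, as did 0% of all probe sets. At an unadjusted limma p of 0.05, 0 of the 10 were counted, against 4.07% of all probe sets. In an exact permutation test, which cannot give a p under 0.00216 with these groups, 0 of the 10 were under 0.05, against 4.03% of all. Maple syrup was the lower diet for 8 of the 10 genes, against 51.4% of all probe sets, and the median g of the 10 was -0.29, against -0.02 over all probe sets. With 1 liver left out the median g of the 10 lay between -0.48 and -0.06. Without sugar mix replicate 1 it was the lower diet for 6 of the 10. Because the genes varied together, these 8 are not 8 separate observations.

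**Figure D3:**
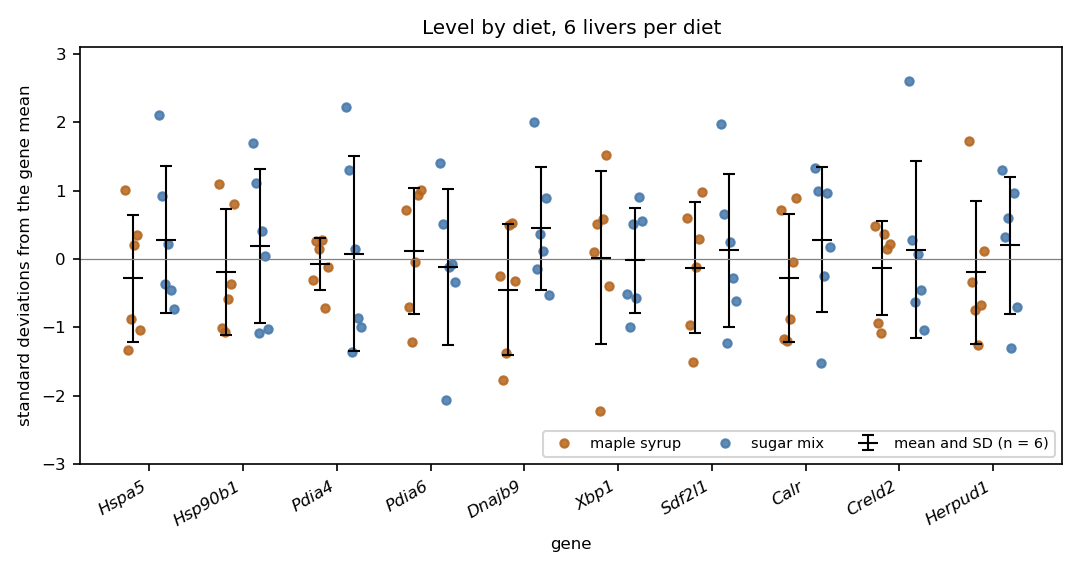
Level of each gene in the 6 maple syrup livers (left, brown) and the 6 sugar mix livers (right, blue), in standard deviations from the mean of the gene over the 12 livers; black bars are the mean and SD. The diets overlap for every gene.

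Among the chaperones, Hspa5 lay between -1.33 and 1.01 SD with a median of -0.34 in maple syrup livers, and between -0.74 and 2.10 with a median of -0.07 in sugar mix livers. The diets overlapped, and the highest liver was sugar mix replicate 1. Its g was -0.52 (95% interval -1.58 to 0.56, 6 livers per diet; -0.79 without maple syrup replicate 1 and -0.22 without sugar mix replicate 1), with maple syrup the higher in 12 of the 36 pairs of 1 liver of each diet. Hsp90b1 lay between -1.07 and 1.10 with a median of -0.48 in maple syrup livers, and between -1.09 and 1.69 with a median of 0.23 in sugar mix livers. The ranges nearly coincided at the low end, and g was -0.34 (95% interval -1.39 to 0.72), or -0.60 without maple syrup replicate 1 and -0.08 without sugar mix replicate 1. Calr lay between -1.20 and 0.89 with a median of -0.46 in maple syrup livers, and between -1.53 and 1.33 with a median of 0.57 in sugar mix livers. The lowest liver of all was on the sugar mix, and g was -0.52 (95% interval -1.57 to 0.56), or -1.02 without sugar mix replicate 3 and -0.33 without sugar mix replicate 1.

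Of the co-chaperone genes, Dnajb9 had the largest difference of the 10 in size. It lay between -1.78 and 0.53 SD with a median of -0.28 in maple syrup livers, and between -0.53 and 2.00 with a median of 0.24 in sugar mix livers. Only maple syrup replicates 2 and 3 lay below every sugar mix liver, and only sugar mix replicates 1 and 5 above every maple syrup liver. Its g was -0.89 (95% interval -1.99 to 0.24), the exact permutation p was 0.13 and the limma adjusted p was 1.00, with maple syrup the higher in 10 of 36 pairs. Sdf2l1 lay between -1.51 and 0.97 with a median of 0.08 in maple syrup livers, and between -1.23 and 1.98 with a median of -0.02 in sugar mix livers. Its medians were close, with g = -0.22 (95% interval -1.27 to 0.83), and the sign of g turned without sugar mix replicate 1 (0.13) or without maple syrup replicate 3 (0.02), and g was -0.49 without sugar mix replicate 3.

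The disulfide isomerases did not share a sign. Pdia4 lay between -0.71 and 0.27 SD with a median of 0.02 in maple syrup livers, and between -1.35 and 2.22 with a median of -0.36 in sugar mix livers. All maple syrup values fell inside the range of the sugar mix, with g = -0.14 (95% interval -1.18 to 0.91), or -0.41 without sugar mix replicate 3 and 0.32 without sugar mix replicate 1. Pdia6 lay between -1.21 and 1.01 with a median of 0.34 in maple syrup livers, and between -2.07 and 1.40 with a median of -0.10 in sugar mix livers. Both extremes were on the sugar mix, and g was 0.21 (95% interval -0.85 to 1.25), or -0.17 without sugar mix replicate 3 and 0.52 without sugar mix replicate 1. Creld2 lay between -1.09 and 0.48 with a median of 0.18 in maple syrup livers, and between -1.04 and 2.60 with a median of -0.19 in sugar mix livers. Sugar mix replicate 1 held the value of 2.60, well above the next sugar mix liver. With it g was -0.24 (95% interval -1.29 to 0.81), and without it 0.32; without sugar mix replicate 6 it was -0.46.

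Herpud1 lay between -1.27 and 1.73 SD with a median of -0.51 in maple syrup livers, and between -1.30 and 1.30 with a median of 0.46 in sugar mix livers. Its highest liver was maple syrup replicate 1, and g was -0.36 (95% interval -1.40 to 0.71), or -0.87 without maple syrup replicate 1 and -0.16 without sugar mix replicate 1. Xbp1 lay between -2.22 and 1.52 with a median of 0.31 in maple syrup livers, and between -0.99 and 0.90 with a median of 0.00 in sugar mix livers. The maple syrup livers spanned more than the sugar mix livers at both ends, and g was 0.03 (95% interval -1.01 to 1.08), or -0.25 without maple syrup replicate 5 and 0.60 without maple syrup replicate 3. The array reads total Xbp1 RNA; the spliced form that IRE1 makes was not measured apart here. For the 10 genes the exact permutation p lay between 0.13 (Dnajb9) and 0.952 (Xbp1), and the 95% intervals of g lay between -1.99 and 1.25. The interval included -1 for every gene but Pdia6, and 1 for Pdia6 and Xbp1 only.

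**Figure D4:**
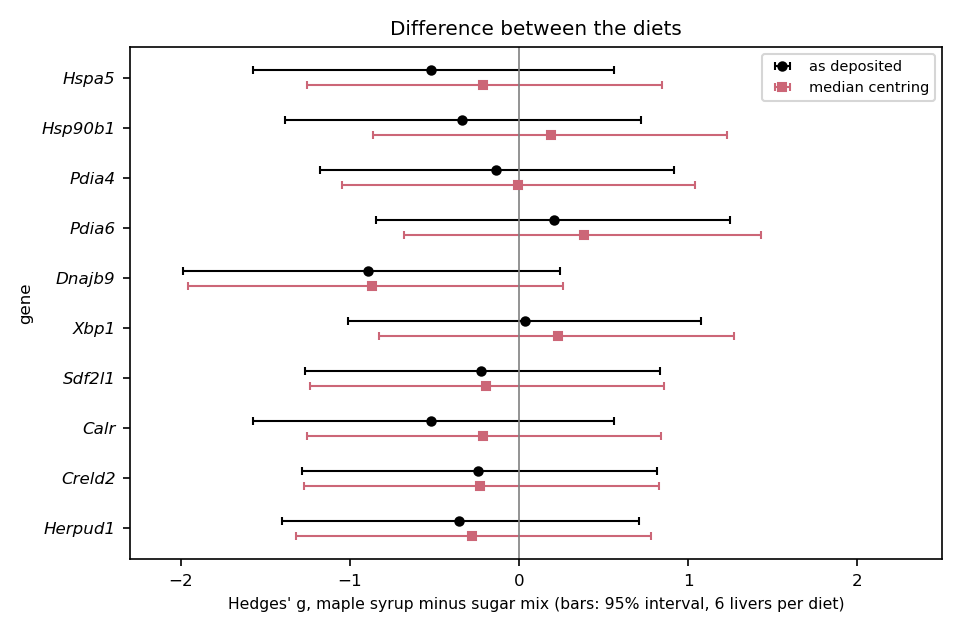
Hedges' g between the diets (maple syrup minus sugar mix) with its 95% interval, 6 livers per diet, for the deposited values (black circles) and after each array was centred on its median (red squares). Every interval includes 0, and only Hsp90b1 is on different sides of 0 in the 2 settings.

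The plot of g with and without array median centring shows how far each gene moved. Hsp90b1 turned to 0.19 after centring, against -0.34 as deposited, and Hspa5 and Calr were at -0.21 and -0.21, against -0.52 and -0.52. Pdia6 and Xbp1 were at 0.38 and 0.23, against 0.21 and 0.03. Dnajb9, Creld2 and Sdf2l1 were at -0.87, -0.23 and -0.19, against -0.89, -0.24 and -0.22 as deposited. After centring 7 of the 10 genes were lower with maple syrup, against 5.71% of all probe sets, with the median g of all probe sets at 0.36. The array medians ranged over 0.000169, against a median SD of a probe set of 7.13e-06. Most probe sets therefore largely carry the array median after centring. The SDs of the 10 genes were above those of 77.3% to 98.7% of probe sets. The shares are thus unlike and cannot be read as an excess of lower genes. After centring the median g of the 10 was -0.20. Quantile normalization left 5 of the 10 genes at a single value on all arrays, since their rank did not change, so it gave no result for them, and the other 5 had g of -0.99 (Dnajb9), -0.84 (Calr), -0.25 (Sdf2l1), about 0 (Pdia4) and 0.036 (Creld2).

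Other genes of the pathway passed the test in 0 cases as well; these lists were chosen with earlier results of these data known, and 1 probe set per gene was used. Other folding factors of the endoplasmic reticulum had 16 of 23 measured genes lower with maple syrup, 0 of them passing the limma test and 1 at an unadjusted limma p under 0.05 (4.07% of all probe sets), with a median g of -0.21, against 52.9% lower and a median of -0.04 over all other genes. P4hb, the classical protein disulfide isomerase, was at -1.64 (maple syrup higher in 2 of 36 pairs, limma adjusted p = 1.00). Ero1a, the oxidase that recharges it, was at -1.25, and Erp44, which retains Ero1a in the pathway, was at 0.02. After array median centring the median of this list was 0.30, where that of all other genes was 0.36. The other lists below had medians between 0.08 and 0.37 after centring, apart from the Kupffer cell markers at -0.14. With 1 liver left out the median g lay between -0.33 and -0.03 for the other folding factors, -0.59 and -0.08 for the sensors, and -0.66 and -0.06 for the heat shock genes. It took both signs for the degradation genes (-0.19 to 0.10), the PERK and ATF4 targets (-0.28 to 0.19), the translocon genes (-0.15 to 0.20) and the plasma and B cell markers (-0.34 to 0.18).

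Of the sensors and transcription factors, 6 of 11 were lower with maple syrup, near the 52.9% of all other genes, with a median g of -0.32, 0 passing and 2 at an unadjusted limma p under 0.05, against 4.07% of all probe sets. Eif2ak3, the gene of the sensor PERK, lay between -1.75 and 0.19 SD with a median of -0.54 in maple syrup livers, and between 0.21 and 1.44 with a median of 0.57 in sugar mix livers. The diets did not overlap, which held for 0.106% of all probe sets. Its g was -1.98, maple syrup was higher in 0 of 36 pairs and the exact permutation p was 0.00216, the smallest the design allows, but the limma adjusted p was 1.00. It was named as the gene of largest difference in its list, so the choice favoured a large value. Of the transcription factors in the list, Creb3l2 was at -1.20 and Creb3l1 at 0.01. The targets of PERK and ATF4 had 8 of 15 genes lower, 1 at an unadjusted limma p under 0.05 and a median g of -0.15, with Chac1, a glutathione-degrading enzyme, at -1.17, Atf3 at -0.92 and Cebpb at -0.15.

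Beside the counts in this paragraph, 52.9% of all other genes were lower with maple syrup. An unadjusted limma p under 0.05 was reached by 4.07% of all probe sets. In the degradation machinery of the endoplasmic reticulum 12 of 17 genes were lower with maple syrup, with a median g of -0.08. Ube2g2, a ubiquitin-conjugating enzyme, was at -1.01, Syvn1, the ubiquitin ligase HRD1, at -0.64 and Ufd1 at -0.03. In the translocon and signal sequence processing 13 of 28 were lower, with 1 at an unadjusted limma p under 0.05 and a median g of 0.02. Sec62, a translocon component, was at 1.62 (maple syrup higher in 33 of 36 pairs, limma adjusted p = 1.00), Spcs3, of the signal peptidase, at 0.79 and Ssr4 at -0.01. Heat shock response genes had 10 of 13 lower and a median g of -0.19, with Bag3 at -0.65, Dnajb1 at -0.57 and Ahsa1 at 0.08. The lists of cell markers had 0 genes passing in limma and 1, a plasma and B cell marker, at an unadjusted p under 0.05; the degradation and heat shock lists had 0 at either. Kupffer cell and macrophage markers had 8 of 9 lower and a median g of -0.68 (Csf1r -1.02, C1qc -0.96, Adgre1 -0.14), plasma and B cell markers 4 of 7 lower and -0.15 (Sdc1 -1.40, Mzb1 0.48, Tnfrsf17 -0.15), pancreatic acinar markers 5 of 9 lower and -0.22 (Amy2a3 0.83, Cela1 0.73, Ctrb1 0.01), and hepatocyte markers 5 of 11 lower and 0.32 (Cps1 -0.90, Fga 0.73, Apoa1 -0.10). With 1 liver left out the median g lay between -0.91 and -0.45 for Kupffer cell, -0.39 and -0.01 for acinar and 0.11 and 0.45 for hepatocyte markers. Under quantile normalization it was -0.65 for hepatocyte markers and -0.19 for Kupffer cell markers, and it turned sign for the degradation genes (0.16), the translocon genes (-0.03) and the plasma and B cell markers (0.08).

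The same lists differed in how far they followed the 10 genes from liver to liver. This is a description over 12 livers, with no test. The median r with the mean of the 10 genes was 0.67 for the 13 heat shock response genes, of which 9 had r of at least 0.5. Those 9 include the mitochondrial Hspd1 (0.85) and Hspe1 (0.73). The median r was 0.52 for the other folding factors (12 of 23) and 0.46 for the translocon and signal sequence genes (12 of 28), against 0.03 and 9.49% for all other genes. Kupffer cell markers had a median r of 0.43 (4 of 9 of at least 0.5). The list means of the Kupffer cell markers lay between -1.49 and 0.65 SD in maple syrup livers and between -0.19 and 1.04 in sugar mix livers, and their part in the pattern was not tested. Degradation genes had a median r of 0.16 and sensors 0.21, with Syvn1 the closest of the degradation genes at 0.75. Genes of the PERK branch and ATF4 targets had a median r of -0.19, with 0 of 15 of at least 0.5. Hepatocyte markers, which lie near the top of the scale, had one of -0.04. Single hepatocyte markers ranged from -0.70 to 0.45, with 5 of 11 above 0.

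**Figure D5:**
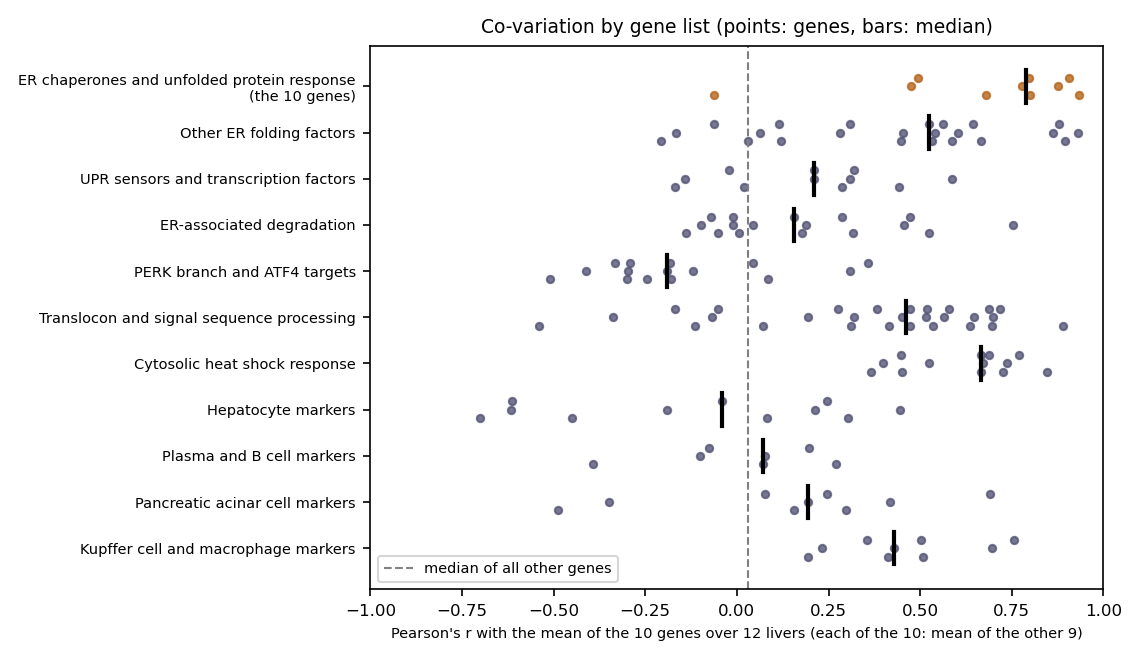
Pearson correlation over the 12 livers of each gene (points) with the mean of the 10 genes, by list, with the median of the list (black bar); each of the 10 is set against the mean of the other 9. Genes listed for the heat shock response all lie above 0, PERK branch genes are mostly below it, and the dashed line marks the median of all other genes, 0.03.

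The genes most like the mean of the 10, of 14207 others, were Dnajb11 (r = 0.93, rho = 0.85), Nus1 (r = 0.93, rho = 0.87), Slc35b1 (r = 0.92, rho = 0.89), Coq5 (r = 0.92, rho = 0.88) and Ggct (r = 0.91, rho = 0.78). They were picked for their r, so no p is given. Dnajb11 encodes a co-chaperone of BiP, Nus1 a subunit of the enzyme that makes dolichol for glycosylation, Slc35b1 a transporter of ATP into the endoplasmic reticulum, Coq5 an enzyme of coenzyme Q synthesis and Ggct gamma-glutamylcyclotransferase. Without sugar mix replicate 1 their r lay between 0.84 and 0.88. The same 5 genes led after centring on the standardised median.

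The promoter elements can be set beside these correlations as a description. Xbp1 holds the full ERSE and had r near 0 with the others, while Sdf2l1 followed the others most closely and matched 8 of the 10 letters at best. Among the 12 measured genes outside the set with the full element, a group formed after the first results had been seen, the median r with the mean of the 10 genes was -0.08, from -0.53 (Foxd4) to 0.45 (Ero1b), and 0 had r of at least 0.5. With at least 9 of the 10 letters, 12.9% of 232 measured genes had r of at least 0.5, against 9.77% of the 11724 measured genes with a promoter. Of the 10 measured genes outside the set with ERSE-II, Dnajb11 (0.93) and Ggct (0.91) had r above 0.5, the others lying between -0.53 and 0.46. Dnajc3 and Canx, with the full ERSE, had r of 0.12 and 0.28, and Hyou1, with ERSE-II, had 0.06.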

How the data were processed

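The authors deposited a score for each of 31099 probe sets on 12 arrays, with 0 missing values; how it was summarized and normalized is not given in the sources used here. Per the labels' protocols, liver RNA (2 ug) was made into biotin-labelled cRNA for Affymetrix arrays. The 57 control probe sets were left out. Of the 31042 tested, 20826 had 1 gene symbol in the platform annotation, updated through RefSeq, 436 had several and 9780 are unnamed here. For lists, the probe set with the highest mean was used. The 10 genes, the lists and several alternatives were chosen with earlier results of these data known.

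The diet comparison used limma 3.58.1 under R 4.3.3, with a mean-variance trend in eBayes and a threshold of 0.05 after Benjamini-Hochberg adjustment, and with exact permutation over all 924 arrangements. Intervals of g are from the noncentral t distribution. Correlations used 100000 permutations in numpy 2.4.6. The limma and correlation steps were tested on simulated data. Named genes were the 10 genes, in each other list the 2 with the largest and the 1 with the smallest g in size, and the 5 genes with the highest r with the mean of the 10; genes named for a promoter element were chosen after first results were seen. Labels call each array a biological replicate. No 2 arrays shared more than 0.0322% of their values.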

Additional observations from a re-analysis of the deposited data

Results flagged for a closer look

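Creld2 in sugar mix replicate 1 stood at 2.60 SD above the mean of the gene, with a gap to the next sugar mix liver that was 0.64 of the range of its diet. Of 22 combinations of a diet with a gene or with the mean of the 10 genes, this was the 1 in which a liver lay so far from the other 5, where chance, at about 1 in 20, gives 1.1. The same liver was the highest of the 12 for 8 of the 10 genes.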

How the results depend on the processing

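Under every alternative run, 0 of the 10 genes and 0 of all probe sets passed between the diets; these were array median centring, quantile normalization, standardised centring, 1 probe set per gene, only probe sets with 1 symbol, the lowest 30% left out, a floor at the 20th percentile, no trend, standardised probe sets, array weights, the replicate block, exact permutation and each array left out. With the replicate number as a block 0 genes passed too. The labels do not say whether the numbers pair the animals. Deviations of same-numbered livers from their diet means correlated at -0.04 to 0.13, from which pairing cannot be told. Of the diet differences, g of Hsp90b1 turned to 0.19 under median centring and that of Creld2 to 0.036 under quantile normalization. Leaving out 1 array turned the sign in some fits for Pdia4 (g from -0.41 to 0.32 over the 12), Pdia6 (-0.17 to 0.52), Xbp1 (-0.25 to 0.60), Sdf2l1 (-0.49 to 0.13) and Creld2 (-0.46 to 0.32). Median r of the 45 pairs lay between 0.34 and 0.60 with 1 liver left out, and the number of pairs that passed between 9 and 18. Under quantile normalization, which left 5 genes to compare, median r was 0.31 and 0 of 10 pairs passed. With maple syrup replicate 3 and sugar mix replicate 1 both left out, median r was 0.33 and 2 pairs passed. The cause of these shifts was not tested. Spearman's rho gave a median of 0.43 and 10 pairs. Intervals of g span 2.09 to 2.23 units, and with 6 livers per diet this limits the size of difference that could be detected.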
